A study of Mus musculus with 6 samples.

Results

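The genes described here mark the dopamine neurons of the midbrain: Th, Slc6a3, Slc18a2, Ddc, Nr4a2, Pitx3, En1, Foxa2, Aldh1a1 and Ret. Their members are all probe sets, each a group of short probes for 1 transcript, whose only gene symbol in the platform annotation is 1 of these 10 genes. There were 17 such probe sets of 45101 on the array. Of the 17, 11 probe sets of 7 genes had a mean signal above the array-wide median of 26.7 and were tested for a difference between genotypes. The other 6, which include all probe sets of Pitx3, En1 and Foxa2, were too dim to be tested and are given as values. RNA came from the brains of mice aged 1 month, 3 lacking Dap12 (samples 67, 68 and Ko1) and 3 heterozygous for the deletion (samples 75, 76 and 81), with 1 Affymetrix array each. The design text gives the tissue as midbrain, with diencephalon and basal ganglia named beside it. All 6 carry the same source label, and the genotype was taken from the sample titles. Strain, sex and the relation of the animals to each other are not given in the sources used here, so p-values cover only the spread among these 6 arrays. Signals of single arrays are given in the order 67, 68, Ko1 for knockout and 75, 76, 81 for heterozygous samples.

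Dopamine neurons of the substantia nigra and ventral tegmental area make dopamine from tyrosine, store it in vesicles and release it mostly in the striatum, where their axons end. Their cell bodies, and with them most of their messenger RNA, lie in the ventral midbrain. A small group of transcription factors specifies these neurons in the embryo and maintains them in the adult. In bulk tissue, fewer cells of a type and less RNA per cell cannot be told apart.

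Dap12 is encoded by Tyrobp, whose probe set read 2.277, 23.67 and 12.89 in the knockout samples and 70.67, 68.19 and 77.6 in the heterozygous samples (log2 change -1.68 ± 0.34, SE; limma adjusted p = 0.0461), so each array matched its genotype label in direction. The array medians ranged from 24.7 to 40.4 on knockout arrays and from 20.3 to 22.0 on heterozygous arrays, although all arrays had the same trimmed mean of 100. Of 29 spiked control probe sets, which are no mouse transcripts, 27 had a higher signal in all 3 knockout samples than in any heterozygous sample. Of all 22518 probe sets tested, 466 (2.07%) passed an adjusted p of 0.05, 297 (1.32%) higher in the knockout and 169 (0.751%) lower. A difference in genotype therefore cannot be told apart from a difference between the groups' arrays that touches all probe sets. The count was 0 without any 1 of knockout 67 and 68 and heterozygous 75 and 81 (limma; 2867 to 3956 at an unadjusted p under 0.05), so the calls named here, Tyrobp included, were lost in those fits.

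For Th, Slc6a3 and Slc18a2 the arrays of 1 genotype differed from each other far more than the genotype means did. On knockout Ko1 and heterozygous 81 the transcripts of the dopamine transporter, the vesicular monoamine transporter and tyrosine hydroxylase stood far below their levels on the other 4 arrays. Among the 11 tested probe sets 1 fell, a probe set of Nr4a2, and 0 rose (limma; 2 had an unadjusted p under 0.05, both of Nr4a2), which is to be read against 2.07% of all tested probe sets called and 21.2% with an unadjusted p under 0.05. Their median log2 change was -0.21 (knockout minus heterozygous), against 0.0037 for all tested probe sets. That median was -0.85 without heterozygous 81 and 0.30 without knockout Ko1.

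Th encodes tyrosine hydroxylase, the rate-limiting enzyme of dopamine synthesis. Signals were 225.5, 175.9 and 59.03 in the knockout samples and 289.5, 228.0 and 55.73 in the heterozygous samples. The lowest array of each group lay at almost the same level, and the groups overlapped across nearly their whole range. The group means were 153 ± 85.5 and 191 ± 121 (SD, n = 3), and the log2 change was -0.21 ± 0.59 (95% interval -1.55 to 1.14, limma adjusted p = 0.873). Its sign turned to 0.20, 0.033 and 0.30 without heterozygous 75, heterozygous 76 and knockout Ko1.

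Ddc, aromatic L-amino acid decarboxylase, converts L-DOPA to dopamine and also serves serotonin neurons. Its brighter probe set read 261.3, 265.6 and 192.2 in the knockout samples and 480.0, 405.8 and 178.8 in the heterozygous samples. Heterozygous 75 and 76 stood above every knockout array and heterozygous 81 below every one of them. The log2 change was -0.44 ± 0.34 (95% interval -1.22 to 0.34, limma adjusted p = 0.494). Without knockout Ko1 and heterozygous 81, which leaves 2 arrays against 2 and was chosen after seeing the data, it was -0.71 ± 0.17 and passed (limma adjusted p = 0.0254), in a fit that called 20.4% of all probe sets. The second Ddc probe set was dim on every array, between 1.258 and 9.787, and was not tested.

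Slc6a3 encodes the dopamine transporter, which takes released dopamine back into the axon and is made almost exclusively by dopamine neurons. It showed the widest range of the 17 probe sets, at 395.2, 204.9 and 6.451 in the knockout samples and 294.8, 252.2 and 12.88 in the heterozygous samples. The highest array carried 61.3 times the signal of the lowest, and both groups spanned most of that range. Its log2 change of -0.080 ± 1.16 had a 95% interval from -2.72 to 2.56 (limma adjusted p = 0.976), so a difference as large as that of Nr4a2 would not have been detectable. Without knockout Ko1 and heterozygous 81 the estimate was 0.062 ± 0.28 (limma adjusted p = 0.897).

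Slc18a2 encodes the vesicular monoamine transporter, which loads dopamine and other monoamines into synaptic vesicles. Its probe set gave 169.9, 126.6 and 38.42 in the knockout samples and 137.9, 128.3 and 24.69 in the heterozygous samples. The upper 4 arrays stood in the order of Slc6a3, with knockout 67 highest, and the low arrays were again 1 of each genotype. The log2 change was 0.22 ± 0.59 (95% interval -1.12 to 1.57, limma adjusted p = 0.861), and 0.13 ± 0.21 (limma adjusted p = 0.699) without knockout Ko1 and heterozygous 81.

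**Figure D1:**
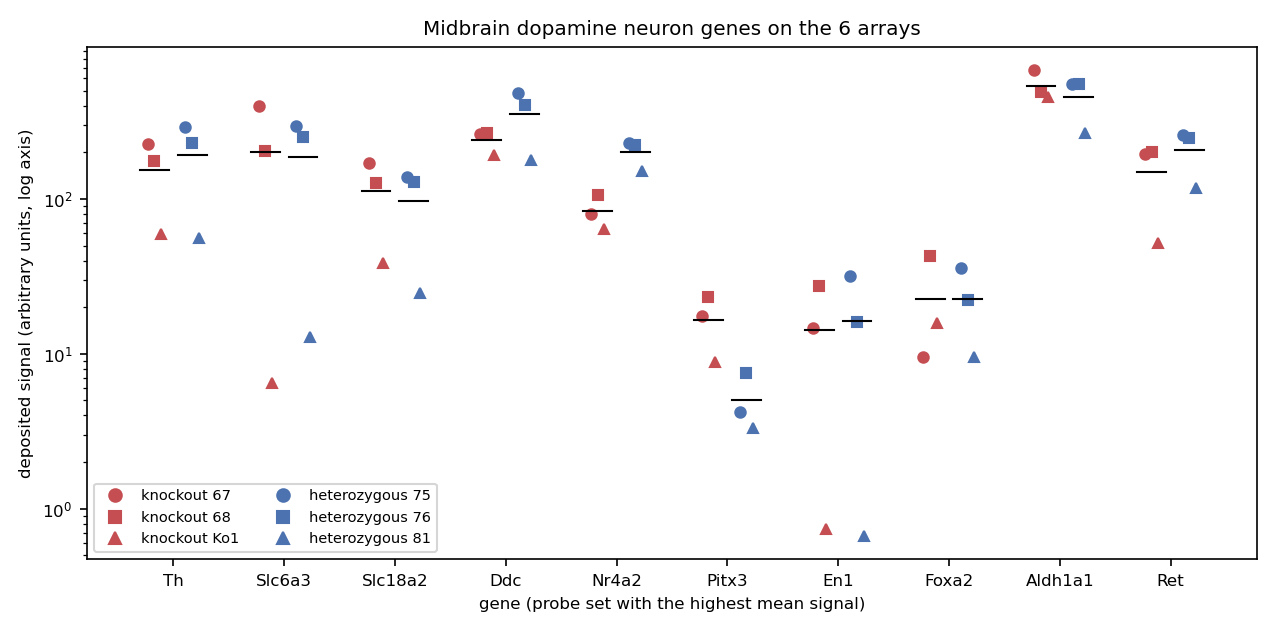
Deposited signal (arbitrary units, log axis) for 10 genes, each by its brightest probe set, with 1 marker per array and a black bar at the mean of 3 arrays. Triangles, which stand for knockout Ko1 and heterozygous 81, are the lowest markers of their group for every gene but Foxa2, where knockout 67 is lowest of its group. The groups are apart for Nr4a2 and Pitx3 and overlap for the other genes.

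Promoter sequence of Th, Slc6a3 and Slc18a2 is shown from RefSeq (assembly GRCm38.p6), with letters of any motif found in capitals. Promoters were matched for 9 of the 10 genes, not for Ret, in 13 windows from 250 bases before to 50 after an annotated start. The 250 bases before the start of Th lie at chr7:142899996-142900245 on the minus strand, and those before an annotated start of Slc6a3 at chr13:73536497-73536746 on the plus strand.
Th: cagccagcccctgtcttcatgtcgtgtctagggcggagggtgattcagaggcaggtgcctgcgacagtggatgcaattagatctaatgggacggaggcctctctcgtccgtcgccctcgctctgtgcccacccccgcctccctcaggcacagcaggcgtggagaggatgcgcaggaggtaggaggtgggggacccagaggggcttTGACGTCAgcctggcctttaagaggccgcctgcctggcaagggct
Slc6a3: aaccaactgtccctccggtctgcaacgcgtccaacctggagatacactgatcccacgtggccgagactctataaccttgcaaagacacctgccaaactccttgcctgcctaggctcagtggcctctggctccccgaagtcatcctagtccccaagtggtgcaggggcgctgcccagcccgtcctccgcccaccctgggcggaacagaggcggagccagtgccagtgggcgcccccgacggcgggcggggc

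The capitals in the Th promoter are a cyclic AMP response element (CRE, TGACGTCA, its own reverse complement), beginning 45 bases before the start. The same 8 letters occur in the Slc18a2 window, beginning 4 bases before its start. Both sites are given with 10 bases on each side, at chr7:142900023-142900050 (minus strand) and chr19:59260864-59260891 (plus strand).
Th site: agaggggcttTGACGTCAgcctggcctt
Slc18a2 site: gcgctgtccgTGACGTCAgagccggact

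On either strand the CRE was in 1.79% of the 32851 promoter windows in the table. The NBRE (AAAGGTCA), the letters that the Nr4a2 protein binds as a monomer, were in 1.51% of windows and among these genes in 1 Ddc window, where they share 3 bases with a TATA box (TATAAA) on the same strand. The TATA box letters were in 13.6% of all windows and in windows of Ddc, Foxa2 and Nr4a2. A bicoid-type site (TAATCC), the kind bound by Pitx factors, and a forkhead site (TGTTTAC) were in 0 of the 13 windows, against 7.06% and 3.65% of all windows. The Slc6a3 window held none of the motifs searched. These matches describe letters only, and their part in the levels on any array was not tested.

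Nr4a2 (Nurr1) is the nuclear receptor that switches on Th, Slc6a3 and Slc18a2 in dopamine neurons. It is also made in the cortex and other regions, and it is induced by neuronal activity. It held the only call among the members, and its 6 probe sets did not move together. Probe set 1455034_at read 61.93, 41.19 and 37.11 in the knockout samples and 236.6, 176.4 and 112.3 in the heterozygous samples. Every knockout array lay below every heterozygous array, as for 12.5% of all tested probe sets. It fell by 1.57 on the log2 scale (SE 0.29, 95% interval -2.24 to -0.91, limma adjusted p = 0.0388; an exact two-sided permutation test gave 0.1, its lower limit with 3 arrays against 3).

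The brightest Nr4a2 probe set, 1447863_s_at, read 80.32, 105.6 and 64.10 in the knockout samples and 229.2, 222.1 and 150.6 in the heterozygous samples. Here too the groups did not overlap, with a log2 change of -1.12 ± 0.25 that missed the threshold (limma adjusted p = 0.0566). Both probe sets kept a negative change under all 17 alternatives that were run. The call of 1455034_at held in 8 of them. These include array weights, without knockout Ko1, and without knockout Ko1 and heterozygous 81, which called 4971, 5358 and 4592 of all 22518 probe sets. It was lost without any 1 of knockout 67 and 68 and heterozygous 75, 76 and 81 (limma adjusted p from 0.0855 to 0.201). Quantile normalization, no trend and no filter also lost it (limma adjusted p = 0.0509, 0.0557 and 0.0734).

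The other Nr4a2 probe sets gave different pictures. Probe set 1450750_a_at read 65.10, 99.66 and 33.16 in the knockout samples and 120.4, 106.6 and 84.18 in the heterozygous samples, so the groups overlapped (log2 change -0.62 ± 0.32, limma adjusted p = 0.305). Probe set 1450749_a_at read 57.75, 112.7 and 30.48 in the knockout samples and 49.38, 59.23 and 25.17 in the heterozygous samples, with a change on the other side of 0 (0.37 ± 0.40, limma adjusted p = 0.630). Its lowest arrays were heterozygous 81 and knockout Ko1, as for Th and unlike the 2 brightest probe sets. The dim 1433422_at, which was not tested, read 39.86, 34.50 and 26.80 in the knockout samples and 11.38, 3.100 and 13.81 in the heterozygous samples. All knockout arrays stood above all heterozygous arrays, opposite to 1455034_at, as for 18.6% of the probe sets that were not tested. In the fit without a filter on level its change was 0.98 ± 0.32 (limma adjusted p = 0.201). The dimmest, 1433423_at, stayed between 0.6363 and 11.45. Which Nr4a2 transcripts each probe set reads was not examined.

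**Figure D2:**
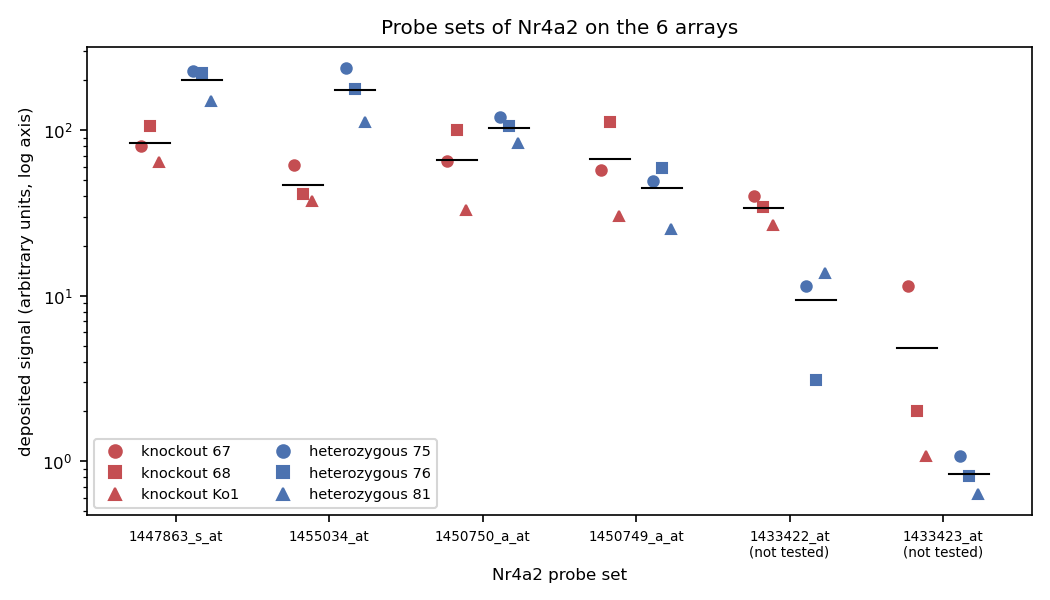
Deposited signal (arbitrary units, log axis) of the 6 probe sets of Nr4a2, ordered by mean signal, with 1 marker per array and a black bar at the mean of 3 arrays. The knockout arrays lie below the heterozygous arrays for the 2 brightest probe sets and above them for the untested 1433422_at.

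The 3 other transcription factors were near the bottom of the signal range, and none was tested. Pitx3, a homeodomain factor needed for the neurons of the substantia nigra, read 17.52, 23.21 and 8.817 in the knockout samples and 4.220, 7.481 and 3.313 in the heterozygous samples. All knockout arrays stood above all heterozygous arrays, as for 18.6% of the probe sets that were not tested, and in the fit without a filter on level the change was 0.61 ± 0.27 (limma adjusted p = 0.289, where 0.275% of all probe sets passed). En1, the engrailed homeodomain factor of the midbrain and hindbrain, read 14.57, 27.32 and 0.7376 in the knockout samples and 32.01, 16.09 and 0.6679 in the heterozygous samples. Its 2 lowest arrays were again knockout Ko1 and heterozygous 81, by a wide margin. Foxa2, a forkhead factor of the floor plate and of dopamine progenitors, read 9.557, 42.69 and 15.89 in the knockout samples and 35.85, 22.12 and 9.482 in the heterozygous samples, with no order by genotype. At such levels the added 16 sets most of the log2 value, and no detection calls were given to say which of these signals lie above background.

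Aldh1a1 and Ret are less restricted to dopamine neurons. Aldh1a1, a retinaldehyde dehydrogenase that marks the ventral tier of the substantia nigra and is also made by other cells of the brain, read 676.8, 487.8 and 453.6 in the knockout samples and 550.2, 555.5 and 266.9 in the heterozygous samples. Heterozygous 81 stood alone at the bottom, and the log2 change was 0.28 ± 0.30 (limma adjusted p = 0.634). Ret, the receptor tyrosine kinase that carries the signal of GDNF, read 194.5, 201.0 and 51.61 in the knockout samples and 259.9, 246.1 and 117.1 in the heterozygous samples on its brighter probe set. Knockout Ko1 was lowest and heterozygous 81 next, and the log2 change was -0.55 ± 0.47 (limma adjusted p = 0.544). The dimmer Ret probe set, with 73.16, 79.00 and 44.83 in the knockout samples and 57.73, 68.79 and 27.90 in the heterozygous samples, changed by 0.30 ± 0.32 (limma adjusted p = 0.621), and here heterozygous 81 was lowest.

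**Figure D3:**
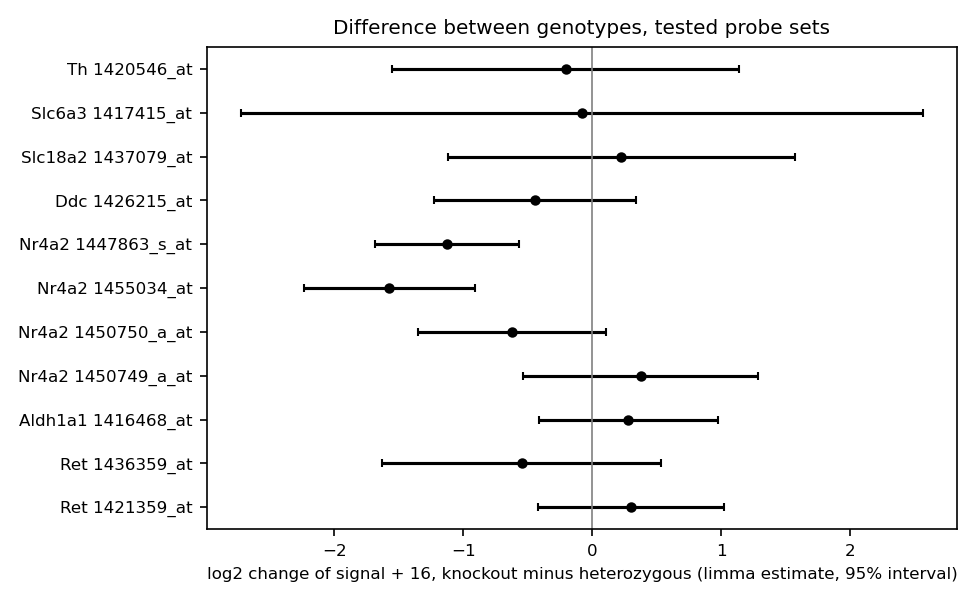
Estimated log2 change of signal + 16 between knockout and heterozygous arrays for the 11 tested probe sets, with 95% intervals from limma. Only the 2 brightest Nr4a2 probe sets have an interval clear of 0, and the interval of Slc6a3 runs from -2.72 to 2.56.

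The spread within each group was large for these genes. The SD of log2(signal + 16) over the 3 heterozygous arrays was above the median of all tested probe sets (0.19) for 11 of 11 members. It was 1.92 for Slc6a3, 1.13 for Th, 1.08 for Slc18a2 and 0.72 for Ddc. The share of all tested probe sets with a smaller SD was 99.99%, 99.62%, 99.55% and 97.65% for these 4 genes. Over the 3 knockout arrays the SD was above the overall median (0.37) for 6 of 11, with 2.21 for Slc6a3, 0.96 for the brighter Ret probe set, 0.93 for Slc18a2 and 0.89 for Th. The exceptions on the knockout side were Ddc (0.25), Aldh1a1 (0.30), the dimmer Ret probe set (0.35) and the 2 brightest Nr4a2 probe sets (0.30 and 0.29), which differed little between the 3 knockout arrays.

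**Figure D4:**
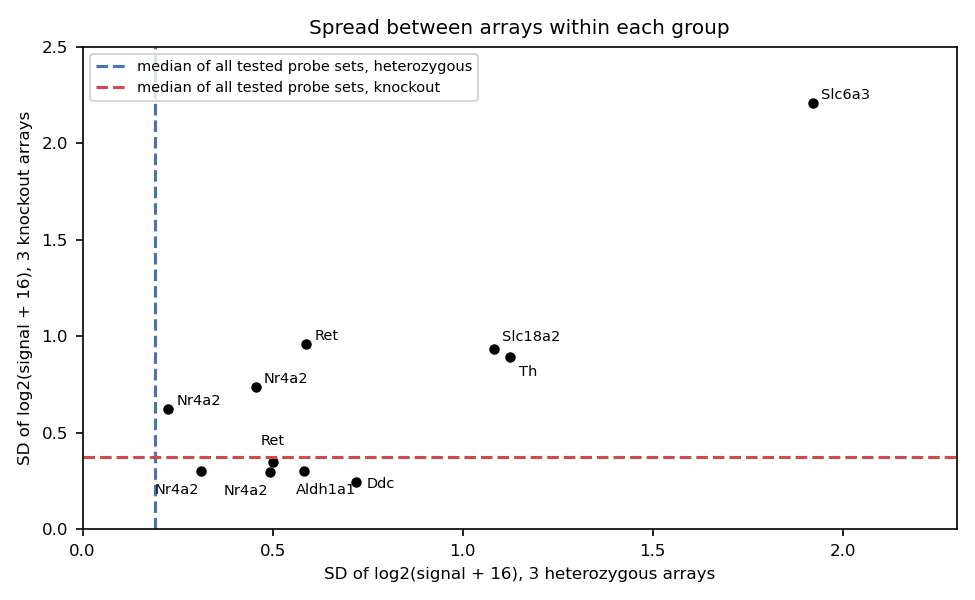
SD of log2(signal + 16) over 3 heterozygous arrays (horizontal axis) and 3 knockout arrays (vertical axis), 1 point per tested probe set, with dashed lines at the medians of all tested probe sets (0.19 and 0.37). Slc6a3 lies far out in both groups, and Th and Slc18a2 lie near 1 in both.

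Knockout Ko1 and heterozygous 81 were the 2 lowest arrays for 8 of the 11 tested probe sets, against 8.84% of all tested probe sets. These arrays were singled out after the members' values were seen, so the count describes the members and is no test. Probe sets of 1 gene are not independent of each other. With En1 included, knockout Ko1 and heterozygous 81 were lowest for 9 of the 17 probe sets, which belong to 8 of the 10 genes. The exceptions among the tested probe sets were the 3 brightest of Nr4a2. Without knockout Ko1 and heterozygous 81, a choice made after seeing the data, 3 of 11 tested probe sets were called lower and 0 higher (Ddc and the 2 brightest of Nr4a2). In that fit 9.82% of all tested probe sets were called lower, and the members' median change was -0.33. Knockout 67 and 68 stood apart over the whole array, with a correlation of at most 0.912 and 0.921 with any other. Without them 0 of 11 members passed (limma; 4 at an unadjusted p under 0.05), 1 change was above 0 and the median was -1.22. Knockout Ko1 was then the only knockout sample and was taken to vary like the heterozygous ones.

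The genes whose pattern over the 6 arrays was closest to that of Th were found by the root mean square distance between log2 profiles, each centred on its own mean, over 19919 other probe sets with 1 gene symbol. The nearest was Pi4kb, a lipid kinase of the Golgi (0.205), followed by Slc18a2 (0.228), Creg2 (0.274), Chrna6, a nicotinic receptor subunit enriched in dopamine neurons (0.311), and Ebf3, a transcription factor (0.324). The median distance over all probe sets was 0.892. The brighter Ret probe set ranked 11 and Ddc ranked 39, while the brightest Nr4a2 probe set ranked 4155. Slc6a3 ranked 10024 from Th, at a distance (0.893) near that median, since the measure counts the size of the swings and those of Slc6a3 were wider. Nearest to Slc6a3 were Lef1 (0.789) and Tcf7l2 (0.833), transcription factors that mark thalamic neurons, then Chrna6 (0.852), Th (0.893) and Slc18a2 (0.895), with a median of 1.71 over all probe sets. These distances describe 6 arrays that share their processing.

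Marker lists of the striatum, the thalamus, and the cerebellum and hindbrain also set knockout Ko1 and heterozygous 81 apart in their sums, while those of the hypothalamus did not. Summed over 14 genes, each by its brightest probe set, dopamine receptors and markers of the striatal neurons that receive dopamine gave 11984 on knockout Ko1 and 12121 on heterozygous 81, and between 2597 and 4427 on the other 4 arrays. The corresponding sum of the 10 dopamine neuron genes was 891 and 820 on knockout Ko1 and heterozygous 81 and between 1661 and 2314 on the others. The sum of 10 thalamic genes was 1323 and 2449 on these arrays and between 3689 and 5901 on the others. Hypothalamic genes followed another order, from 2036 on knockout 68 and 3691 on knockout 67 to 7329 on heterozygous 76, with 6144 on knockout Ko1 and 5275 on heterozygous 81. The sum of 9 genes of other midbrain neurons was highest on knockout Ko1 (962) and heterozygous 81 (885), against 369 to 635 on the others. Most of it on those 2 arrays came from Meis2, which striatal neurons also make, at 872.8 and 788.8. Knockout Ko1 and heterozygous 81 were the 2 lowest arrays for 15 of 24 tested thalamic probe sets, 1 of 7 of the other midbrain neurons, 0 of 13 hypothalamic ones and 0 of 20 of the striatal list. The sum of 10 cerebellum and hindbrain genes was 1154 on knockout Ko1 and 1574 on heterozygous 81, and between 1855 and 2075 on the others. These arrays were the 2 lowest for 2 of the 9 tested probe sets of that list. The sum of 7 cortex and hippocampus genes was 1540 and 1701 there, and between 1140 and 1620 on the others. Samples with the same tissue label thus differed in markers of dopamine neurons, striatum and thalamus, and in the cerebellum and hindbrain sum. Whether the regional make-up of the tissue had a part in the levels of the dopamine genes was not tested.

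**Figure D5:**
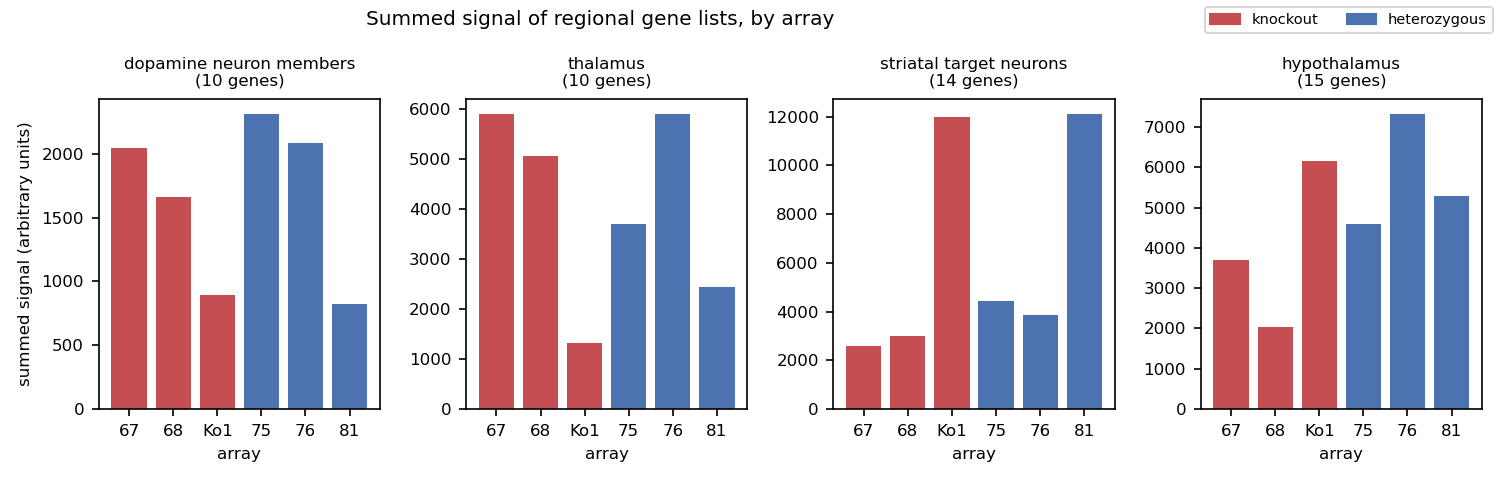
Summed deposited signal (arbitrary units, bars from 0) of 4 gene lists (each gene by its brightest probe set), for each of the 6 arrays, knockout in red and heterozygous in blue. Arrays Ko1 and 81 are lowest for the dopamine neuron and thalamic lists and highest for the striatal list.

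The striatal side can be read gene by gene, with examples picked after their values were seen. Drd1, the D1 dopamine receptor, read 804.6 and 656.5 on knockout Ko1 and heterozygous 81, and 50.70, 53.36, 112.6 and 104.0 on knockout 67 and 68 and heterozygous 75 and 76. Ppp1r1b (DARPP-32), which integrates dopamine signals in the same neurons, read 884.1 and 909.3 on knockout Ko1 and heterozygous 81 and between 76.15 and 247.0 on the others. Drd2, the D2 receptor found on striatal neurons and as an autoreceptor on dopamine neurons, read 100.8, 120.7 and 172.3 in the knockout samples and 101.7, 75.80 and 298.9 in the heterozygous samples. For 20 tested probe sets of this list, 0 passed between genotypes (limma; 2 at an unadjusted p under 0.05), and the smallest p belonged to Pde10a, a striatal phosphodiesterase (1.74 ± 0.46, adjusted p = 0.087), and Rasd2, a striatal GTPase (-1.77 ± 0.49, adjusted p = 0.097). The Pde10a probe set lay below 26.7 on every heterozygous array, and other probe sets of Pde10a lay between -0.54 and 0.46. The brighter Rasd2 probe set changed by -0.78 ± 0.56 (limma adjusted p = 0.462) with overlapping groups.

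Other genes of the dopamine neuron were taken from lists chosen for their function. Of 13 further markers measured, 10 were tested on 16 probe sets, and 1 gene fell, Dlk1, on both tested probe sets, with 0 higher. Dlk1, an imprinted Notch ligand made in dopamine neurons and in the hypothalamus, read 159.0, 160.6 and 155.5 in the knockout samples and 350.6, 402.6 and 341.8 in the heterozygous samples. The 3 knockout arrays were close to each other and below every heterozygous array (log2 change -1.12 ± 0.18, limma adjusted p = 0.0283). Of all tested probe sets, 12.5% were likewise lower on every knockout array. The second Dlk1 probe set changed by -1.40 ± 0.28 (limma adjusted p = 0.047). Ntsr1, a neurotensin receptor, changed by -0.66 ± 0.25 (limma adjusted p = 0.184). As a list these markers did not share the order of the members: knockout Ko1 and heterozygous 81 were the 2 lowest arrays for 4 of 16 tested probe sets, and the list's sum was highest there (3092 and 3041, against 1989 to 2962 on the others). Calb1, a calcium-binding protein of many neurons, made up 1849 and 1518 of those sums. Chrna6, named for its distance to Th, was low on both arrays, with 66.77, 54.50 and 2.064 in the knockout samples and 43.39, 49.83 and 5.852 in the heterozygous samples (0.10 ± 0.64, limma adjusted p = 0.946).

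Of 9 further transcription factors of these neurons, 4 were tested on 9 probe sets and 0 passed (limma; 1 at an unadjusted p under 0.05). Knockout Ko1 and heterozygous 81 were the 2 lowest arrays for 2 of the 9. The smallest p belonged to a probe set of Sox6, a factor of nigral dopamine neurons (-1.11 ± 0.35, limma adjusted p = 0.128), whose 2 other tested probe sets changed by -0.27 and 0.00057, and to Pbx3 (0.67 ± 0.30 and -0.85 ± 0.46 on its 2 tested probe sets). Lmx1a, Lmx1b, Foxa1, En2 and Bnc2 were too dim to be tested. Markers of serotonin, noradrenaline and histamine neurons were low, with 2 of 8 genes bright enough to be tested and neither called (limma; 0 at an unadjusted p under 0.05). Slc6a4, the serotonin transporter, lay between 0.71 and 3.43 on all arrays, and Tph2, the enzyme of serotonin synthesis in neurons, read 45.44 and 23.74 on knockout 67 and 68 and at most 7.03 on the others.

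Genes for the cofactor of tyrosine hydroxylase and for the breakdown of dopamine showed no call in 8 tested probe sets of 6 genes (limma; 2 at an unadjusted p under 0.05). Pts, an enzyme of tetrahydrobiopterin synthesis, read 168.6, 179.5 and 183.3 in the knockout samples and 131.0, 110.1 and 133.1 in the heterozygous samples (0.46 ± 0.19, limma adjusted p = 0.204). Maoa, a monoamine oxidase, changed by -0.44 ± 0.19 (limma adjusted p = 0.222), and by 0.45 on its dimmer probe set. Knockout Ko1 and heterozygous 81 were the 2 lowest arrays for 4 of these 8 probe sets, the dimmer one of Maoa among them.

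Among ligands and co-receptors of Ret, Gfra1 was called higher on 2 of its 3 tested probe sets, and 0 of 5 tested genes fell. Gfra1, which binds GDNF and presents it to Ret, read 119.0, 150.2 and 129.8 in the knockout samples and 54.94, 46.50 and 40.90 in the heterozygous samples on 1450440_at (1.23 ± 0.21, limma adjusted p = 0.033). Probe set 1421973_at read 60.14, 162.1 and 59.45 in the knockout samples and 13.26, 10.45 and 2.713 in the heterozygous samples. It passed the filter on level only through its knockout signals, so its call (2.05 ± 0.40, limma adjusted p = 0.0431) adds no support. The brightest of Gfra1, 1439015_at, changed by -0.42 ± 0.29 (limma adjusted p = 0.435) with overlapping groups. Gfra2, the co-receptor for neurturin, likewise differed between its 4 tested probe sets, at 1.03 ± 0.28 (limma adjusted p = 0.090), 1.03 ± 0.31 (0.118), 0.22 ± 0.27 (0.684) and -0.90 ± 0.29 (0.131). Those that changed by 1.03 also lay below 26.7 on every heterozygous array.

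Summed signals of glial marker lists were higher in every knockout sample than in any heterozygous sample, while single genes differed in direction. The sum of 8 oligodendrocyte genes lay between 27447 and 64771 in the knockout samples and between 19947 and 20401 in the heterozygous samples. Of the 8 genes, 3 had probe sets called higher (Mbp, Mobp and Mal, of myelin) and 1 fell (Myrf, a transcription factor of myelination). Of their 23 tested probe sets, 8 were called higher and 1 lower, against 1.32% and 0.751% of all tested probe sets. A change above 0 was seen for 17 of the 23. The brightest of Mobp was not called (1.00 ± 0.29, limma adjusted p = 0.104). Another of Mobp changed by -0.0018 and 1 of Mbp by -0.59. The brightest of Sox10 changed by -0.70 ± 0.31 (limma adjusted p = 0.246). The sum of 9 microglial genes lay between 2281 and 2432 in the knockout and between 1520 and 1862 in the heterozygous samples. Of 8 tested genes 1 was called higher (Cx3cr1, the fractalkine receptor, on 1 of its 2 probe sets). That probe set read between 4.732 and 9.657 on the heterozygous arrays and passed the filter on level only through its knockout signals. The brighter Cx3cr1 probe set changed by 0.38 ± 0.23 (limma adjusted p = 0.379). Of 11 tested microglial probe sets, 8 had a change above 0, while Tmem119 changed by -0.37 ± 0.21 (limma adjusted p = 0.333). The 8 astrocyte genes summed to between 14053 and 14981 in the knockout and between 10935 and 13480 in the heterozygous samples, with 0 called. Of their 25 tested probe sets, 9 had an unadjusted p under 0.05 in limma, against 21.2% of all tested probe sets. A change above 0 was seen for 16 of the 25. The brightest Gfap probe set changed by -1.25 ± 0.52 (limma adjusted p = 0.215), another by -1.28 and the dimmest by 0.62. Of 12 hypothalamic genes tested 1 fell, Baiap3, which regulates the release of dense core vesicles (-1.68 ± 0.31, limma adjusted p = 0.039). Of the 13 tested hypothalamic probe sets, 7 had an unadjusted p under 0.05 in limma, against 21.2% of all tested probe sets. Their median log2 change was -0.75, with 3 of the 13 above 0. The part of these glial and hypothalamic differences in the levels of Nr4a2 and Dlk1 was not tested.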

How the data were processed

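Total RNA of 6 brains (3 Dap12-ko, 3 Dap12-het) was measured on 1-colour Affymetrix arrays. The deposited values are linear signal intensities above 0 that, per the submitters' processing notes, came from GCOS; the sources used here do not give its version, summary method or detection calls. The 2% trimmed mean was 100 on each array, and this scaling was kept. Genes were named from probe sets with 1 symbol in the platform annotation.

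Signals were taken as log2(signal + 16), so fold changes of dim probe sets are understated. Of the 45037 probe sets that are no controls, the 22518 with a mean signal above the median were fitted together in limma 3.58.1 (R 4.3.3; lmFit on genotype alone, eBayes with trend, two-sided, Benjamini-Hochberg, threshold 0.05). Errors of log2 changes are SE, and errors of signals are SD. The number of arrays limits the precision, and no depth applies. The procedure was tested on simulated data. No set test was made. The members and lists were chosen with earlier results of these data known. All member probe sets are named; from other lists, called genes and the 2 with the smallest p, and the 5 genes nearest to Th and to Slc6a3. Alternatives changed scaling, added constant, filter, spread model, weights and arrays.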

Additional observations from a re-analysis of the deposited data

How the results depend on the processing

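The direction and call of each tested member were recomputed under up to 17 alternatives, which gave 183 values, of which 150 had the same direction and side of the threshold, 19 the other direction, 9 lost a call and 5 gained one. The cause of these changes was not tested. The count of member probe sets called was 2 with array weights and with arrays centred on their medians, 3 without knockout Ko1 and heterozygous 81 (chosen after seeing the data), 0 with quantile normalization, without a trend, without a filter and without knockout 67 and 68, and from 0 to 2 when 1 array was left out (limma throughout). The count over the whole table was 4971 with array weights, 4592 without knockout Ko1 and heterozygous 81, 172 without a trend, 125 with quantile normalization, 124 without a filter, and from 0 to 5358 when 1 array was left out. With arrays centred on their medians it was 580, of which 102 were higher, and the median of all tested probe sets moved to -0.40. The members' median change was -1.22 without knockout 67 and 68. Signs turned with arrays centred on their medians for Aldh1a1 (-0.12), Slc18a2 (-0.18), Nr4a2 1450749_a_at (-0.027) and Ret 1421359_at (-0.10). Without knockout 67 and 68 they turned for Slc18a2 (-0.83), Nr4a2 1450749_a_at (-0.34) and Ret 1421359_at (-0.10), and without knockout Ko1 and heterozygous 81 for Slc6a3 (0.062). When 1 array was left out, the change ranged from -0.85 to 0.30 for Th, -1.19 to 1.17 for Slc6a3, -0.40 to 0.75 for Slc18a2, -0.056 to 0.45 for Aldh1a1, -0.89 to 0.0068 for the brighter Ret probe set and -0.0044 to 0.73 for Nr4a2 1450749_a_at, none of them past the threshold.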
